A study of Mus musculus with 6 samples.

Results

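The miR-30 family was examined in mouse hepatoma tumours through its 7 listed members, mmu-miR-30a-5p, mmu-miR-30b-5p, mmu-miR-30c-5p, mmu-miR-30d-5p, mmu-miR-30e-5p, mmu-miR-30a-3p and mmu-miR-30e-3p, out of 1881 miRNAs on the array. The members were chosen by name, as the array entries with these miRNA names, and the rule uses no measured value. The species prefix mmu, for mouse, is left out from here on. All 7 were detected on all 6 arrays. Each array held RNA of a tumour grown in the right flank of a separate C57BL/6 mouse after inoculation with Hepa1-6 cells, a mouse hepatoma line. The 3 mice of the GLE group received GLE, with a stated total of 0.023 g per day for a 10 g mouse. GLE is not spelled out in the labels, which also do not give its route or the length of its course. The other 3 mice, the model group, bore the same tumours and received 0.2 ml of saline per day for 28 days. The age field reads 28 days for both groups. Because both groups bore tumours, the comparison holds no healthy liver and no tumour-free mouse, and the tumours came from 1 cell line at a site outside the liver.

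MicroRNAs are cut from RNA hairpins, and either arm of the stem can give a mature strand, named 5p or 3p. A strand loaded into an Argonaute protein pairs with messenger RNAs mainly through its seed, bases 2 to 8 from the 5′ end, and lowers their translation and stability. The miR-30 5p strands share a seed and are abundant in many epithelial tissues, including liver and kidney. Their known targets include the transcription factor Snai1, which represses epithelial genes, and the matrix-associated factor Ctgf. The 3p strands of miR-30a and miR-30e have another seed and so another set of possible targets.

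The mature strands are shown first because they decide which members can be told apart on an array. RefSeq's table for GRCm38.p6 held 5 of the 7 members, and capitals mark the seed.
miR-30a-5p: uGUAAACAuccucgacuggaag
miR-30c-5p: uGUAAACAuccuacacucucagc
miR-30e-5p: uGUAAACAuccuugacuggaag
miR-30a-3p: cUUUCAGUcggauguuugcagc
miR-30e-3p: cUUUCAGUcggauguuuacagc

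The 5p strands shown had the seed GUAAACA, which 4 of 1679 mature mouse strands in the table carried. The fourth was miR-384-5p, which is not named as a miR-30. The 3p strands shown had the seed UUUCAGU, which was held by 2 of the 1679 strands. Counting from the 5′ end, miR-30a-5p and miR-30e-5p differed by 1 substitution, C13U, and miR-30a-3p and miR-30e-3p by 1 substitution, G18A. By contrast, miR-30c-5p differed from each of the other 5p strands shown at 5 positions, the first of them position 13. These strands therefore read the same through the seed and part at its 3′ side. miR-30b-5p and miR-30d-5p are named only.

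The family lies at 3 loci. miR-30a-5p maps to chr1:23272274-23272295 (GRCm38.p6, plus strand) and its 3p strand to chr1:23272315-23272336. miR-30e-5p maps to chr4:120772660-120772681 on the minus strand and its 3p strand to chr4:120772618-120772639. miR-30c-5p has a copy at each of these loci, at chr1:23291714-23291736 on the plus strand (Mir30c-2) and at chr4:120769584-120769606 on the minus strand (Mir30c-1), so its signal cannot be assigned to either. By the array's own probe positions, on mm9, the miR-30c copies lie 19.4 kb from miR-30a and 3.1 kb from miR-30e. miR-30b and miR-30d lie 3.8 kb apart on chromosome 15. In the RefSeq table, Mir30e and Mir30c-1 lie inside the span of Nfyc, which encodes a subunit of the CCAAT-binding factor NF-Y. No gene of that table spans the other 4 hairpins.

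The hairpins of the only loci with both arms among the members are shown with their arms in capitals.
Mir30a hairpin: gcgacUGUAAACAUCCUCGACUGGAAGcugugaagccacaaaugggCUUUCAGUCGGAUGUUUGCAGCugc
Mir30e hairpin: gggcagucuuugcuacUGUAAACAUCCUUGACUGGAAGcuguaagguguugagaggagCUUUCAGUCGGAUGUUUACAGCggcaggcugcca

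The probes lie against the 3′ side of each strand, so the base that separates miR-30a from miR-30e falls inside them. The longest probes of these 5p strands are shown with that base in capitals.
miR-30a-5p probe: cttccagtcGaggatgt
miR-30e-5p probe: cttccagtcAaggatgt

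Each of the 9 probes designed for miR-30a and miR-30e had 1 mismatch to its counterpart strand in the other hairpin. The miR-30d-5p probes had 1 mismatch to miR-30a-5p, and the miR-30b-5p probes had 4 to the nearest other strand shown. The miR-30c-5p probes reach base 23 of their strand, so they cannot lie in register within the 22-base strands of miR-30a and miR-30e. No mismatch count is given for them, but miR-30c-5p itself differed from miR-30a-5p and miR-30e-5p at 5 positions. How much of a member's signal came from a near-identical strand was not tested.

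All 6 arrays lay on 1 slide and came from 1 scan, the GLE arrays in slide row 1 and the model arrays in row 2, so slide row and group cannot be told apart. The arrays detected 396 to 456 miRNAs in the GLE group and 378 to 458 in the model group. Levels are the background-subtracted spot intensities, averaged per probe, divided by the array's 75th percentile, put on a log2 scale and averaged over a miRNA's probes. A level of 0 is thus the array's 75th percentile, and levels of different miRNAs are not set against each other, since each probe has its own brightness. The family's probes covered intensities of 65.3 to 3450 units for 5p strands and 15.4 to 104 units for 3p strands, with 0 saturated spots. The coefficient of variation between spots of a probe on an array had a median of 3.22% for 5p and 9.54% for 3p probes. The defining hepatocyte marker was near background: miR-122-5p, the dominant miRNA of hepatocytes, was detected on 1 of 3 GLE and 1 of 3 model arrays and was not tested.

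No miR-30 member passed the test between GLE-treated and model tumours. Of the 388 miRNAs tested, 0 passed (0% called), so the members' 0 of 7 stands against a background of 0. At an unadjusted p under 0.05 the count was 0 of 7 members and 6 of 388 miRNAs. Of the 7 members, 6 had a negative difference, against 49.0% of all tested miRNAs. The members rose and fell together over the tumours, so this count is not one of 7 independent results. Every member had overlapping groups, as did most tested miRNAs, since 26 of 388 (6.70%) had groups that did not overlap. At that share, the members' overlap does not set the family apart.

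miR-30a-5p, one of the most widely studied family members, had log2 levels of 1.64, 2.10 and 0.75 in GLE replicates 1 to 3, against 2.14, 1.87 and 1.69 in model replicates 1 to 3. GLE replicates 1 and 3 lay below every model tumour, GLE replicate 3 by far the most, while GLE replicate 2 lay within the model range, so the groups overlapped. The difference was −0.40 ± 0.35 (GLE minus model, log2, SE, n = 3 each), a fold of 0.757 with a 95% interval of 0.430 to 1.33 (limma adjusted p = 0.935).

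miR-30c-5p, the member made from a pair of loci, had levels of 0.34, 0.88 and −0.39 in the GLE tumours, against 0.86, 0.74 and 0.45 in the model tumours. GLE replicates 1 and 3 again lay below every model tumour, and GLE replicate 2 lay just above them all. Its difference was −0.41 ± 0.33 (fold 0.754, 95% interval 0.440 to 1.29, limma adjusted p = 0.935).

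miR-30e-5p, hosted within Nfyc, had levels of −0.57, −0.062 and −0.95 in the GLE tumours, against −0.22, −0.41 and −0.48 in the model tumours. GLE replicate 2 lay above the whole model range and GLE replicates 1 and 3 below it. The difference was −0.16 ± 0.25 (fold 0.897, 95% interval 0.596 to 1.35, limma adjusted p = 0.950).

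The members from chromosome 15 had the differences nearest to 0. miR-30b-5p had levels of 0.092, 0.39 and −0.19 in the GLE tumours, against 0.14, 0.13 and 0.014 in the model tumours. GLE replicate 1 lay within the model range and the other two lay on either side of it, with a difference of 0.0036 ± 0.20 (fold 1.00, 95% interval 0.727 to 1.38, limma adjusted p = 0.986). Its neighbour miR-30d-5p had levels of 0.13, 0.33 and −0.091 in the GLE tumours, against 0.28, 0.30 and 0.17 in the model tumours. GLE replicate 2 lay just above the model range and GLE replicates 1 and 3 below it, and the difference was −0.13 ± 0.17 (fold 0.915, 95% interval 0.688 to 1.22, limma adjusted p = 0.946).

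Of the 3p strands, that of miR-30a had the more negative difference. miR-30a-3p had levels of −2.55, −2.22 and −3.57 in the GLE tumours, against −2.11, −2.31 and −2.34 in the model tumours. GLE replicate 1 lay below the model tumours and GLE replicate 3 far below the other 5 tumours, while GLE replicate 2 lay within the model range. Its difference of −0.53 ± 0.34 (fold 0.694, 95% interval 0.395 to 1.22, limma adjusted p = 0.935) ranked 8 from the lowest among 388 miRNAs. It was −0.13 with GLE replicate 3 left out and −0.21 with the normexp background correction. miR-30e-3p, read by 1 of its 2 probes because the other was near background, had levels of −3.30, −3.03 and −3.94 in the GLE tumours, against −2.999, −3.18 and −3.16 in the model tumours. Here too the groups overlapped through GLE replicate 2, and the difference was −0.31 ± 0.25 (fold 0.807, 95% interval 0.532 to 1.22, limma adjusted p = 0.935).

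**Figure D1:**
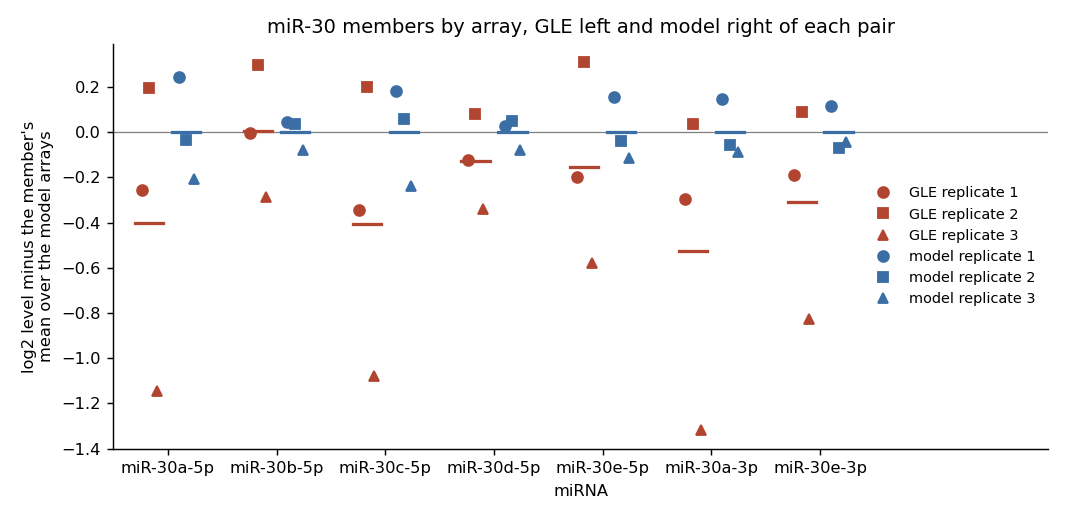
Log2 level of each miR-30 member on each array (points), minus that member's mean over the model arrays, with GLE tumours in red on the left and model tumours in blue on the right of each pair, and group means as bars. GLE replicate 3 is the lowest point for all 7 members, and GLE replicate 2 lies above the model mean for all 7.

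**Figure D2:**
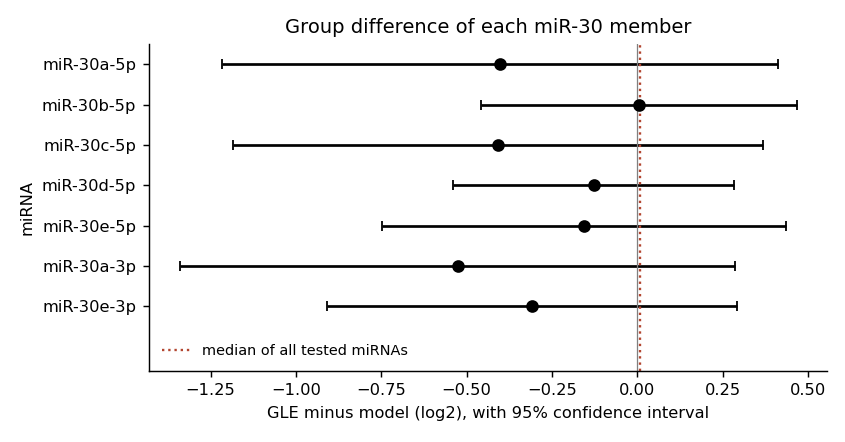
Difference of each member between GLE and model tumours (points, log2, GLE minus model) with its 95% confidence interval from limma (bars, n = 3 each). All 7 intervals include 0, and the differences run between −0.53 for miR-30a-3p and 0.0036 for miR-30b-5p.

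Across the family, the median difference was −0.16 over the 5p members, −0.42 over the 3p members and −0.31 over all 7, beside 0.0078 over all tested miRNAs. These medians rested on single tumours. With GLE replicate 3 left out, miR-30a-5p was at −0.034, miR-30c-5p at −0.076 and miR-30e-3p at −0.055, and with GLE replicate 2 left out they were at −0.70, −0.71 and −0.51. With GLE replicate 3 left out, the 5p median was −0.026, and with GLE replicate 2 left out it was −0.39. Without GLE replicate 3, 5 members were negative and 2 positive. Without GLE replicate 2 all 7 were negative, with 0 past the threshold.

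The members differed more among GLE tumours than among model tumours. The SD was larger in the GLE group for 7 of 7 members, as it was for 297 of 388 tested miRNAs (76.5%). The median SD of the members was 0.47 in the GLE group and 0.13 in the model group, beside 0.33 and 0.17 over all tested miRNAs. Relative to the model mean, the 5p members averaged −0.18, 0.22 and −0.69 in GLE replicates 1 to 3, and 0.13, 0.013 and −0.14 in model replicates 1 to 3. The 3p members averaged −0.24, 0.062 and −1.07 in the GLE tumours, and 0.13, −0.064 and −0.065 in the model tumours. GLE replicate 3 was the lowest of the 6 tumours for 7 of 7 members, and for 97 of 388 tested miRNAs (25%). Because the members rose and fell together, these counts of 7 are not 7 independent results. GLE replicate 2 was the highest for 4 members (miR-30b-5p, miR-30c-5p, miR-30d-5p and miR-30e-5p), and model replicate 1 for the other 3.

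The members kept nearly 1 order over the tumours. Pearson's r over the 6 arrays was 0.865 to 0.991 among the 10 pairs of 5p members, with a median of 0.952. It was 0.789 to 0.986 among the 10 pairs of a 5p with a 3p member and 0.996 between the 3p members. With the group means removed and both groups pooled, r over all 21 pairs was 0.926 to 0.996. The members' median SD was 0.47 in the GLE group and 0.13 in the model group, so this r rests mainly on GLE tumours. Within the model group the order was not the same for all members. miR-30a-5p decreased from model replicate 1 through 2 to 3, miR-30d-5p was highest in replicate 2, and miR-30e-3p was lowest in replicate 2. All these r values are descriptions. The pairs share the array, its scaling and, for miR-30a, miR-30d and miR-30e, near-identical probes. miR-30b-5p, with at least 4 mismatches to the strands shown, had r of 0.865 to 0.938 with the other 5p members. With the group means removed, its r with them was 0.966 to 0.994, beside 0.958 for miR-30a-5p with miR-30d-5p. The strand of miR-30c-5p differs from miR-30a-5p and miR-30e-5p at 5 positions. Its r was 0.990 with miR-30a-5p, 0.960 with miR-30e-5p, 0.991 with miR-30d-5p and 0.873 with miR-30b-5p.

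Arms of 1 hairpin were compared because they come from 1 precursor, so a change in the hairpin's amount would move both. For miR-30a the arms rose and fell together over the 6 tumours (r = 0.980, exact permutation p = 0.00139, adjusted over 2 relations 0.00278). Spearman's rho was 1 (exact permutation p = 0.00278, adjusted 0.00556), and r was 0.843 without the 2 tumours farthest from the median of miR-30a-5p, which were GLE replicate 3 and model replicate 1. For miR-30e, r was 0.930 (exact permutation p = 0.00556, adjusted 0.00556) and rho was 0.886 (exact permutation p = 0.0333, adjusted 0.0333). Without its 2 farthest tumours, GLE replicates 2 and 3, r was 0.949. Beside the 0.930 with its own partner strand, miR-30e-3p had an r of 0.986 with miR-30a-5p, 0.968 with miR-30c-5p and 0.941 with miR-30d-5p. Its r with miR-30b-5p was 0.820. These differences were not tested. The permutation p-values set r against 0, so they do not tell arms of 1 hairpin from other pairs of members. With normexp background correction, which adds an offset of 50 units to every spot, neither relation between arms held. There r was 0.687 for miR-30a (exact permutation p = 0.160) and −0.13 for miR-30e (exact permutation p = 0.804). The offset lies above many of the 3p intensities, which began at 15.4 units.

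**Figure D3:**
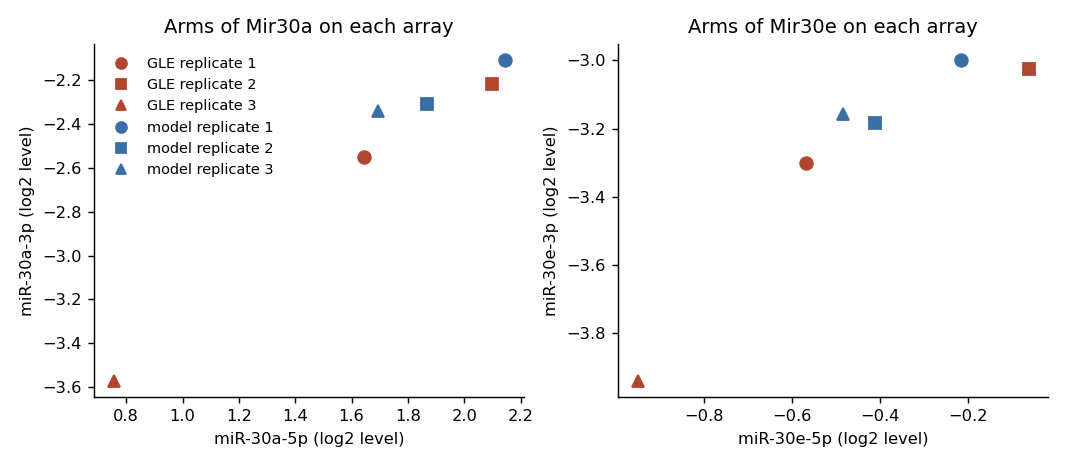
Log2 level of the 3p strand against the 5p strand on each array, for miR-30a (left, r = 0.980) and miR-30e (right, r = 0.930), with GLE tumours in red and model tumours in blue (n = 6 arrays). GLE replicate 3 is at the low end of both strands in both panels, and GLE replicate 2 and model replicate 1 are at the high end.

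Within an array, 5p minus 3p removes the scaling between arrays. For miR-30a this value was 4.19, 4.31 and 4.33 in GLE tumours, against 4.25, 4.18 and 4.03 in model tumours. The means differed by 0.12 (two-sided exact permutation p = 0.2, n = 3 each). For miR-30e it was 2.73, 2.96 and 2.99 in GLE tumours, against 2.78, 2.77 and 2.67 in model tumours, a difference of 0.15 (exact permutation p = 0.3). Only the group difference of such a value can be read, since its size depends on the probes.

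Loci were compared in the same way, leaving out miR-30c-5p. The chromosome 1 member miR-30a-5p minus the chromosome 4 member miR-30e-5p was 2.21, 2.16 and 1.71 in GLE tumours, against 2.36, 2.28 and 2.18 in model tumours. Its means differed by −0.25 (exact permutation p = 0.2). miR-30a-5p minus the mean of the chromosome 15 members was 1.54, 1.74 and 0.90 in GLE tumours, against 1.94, 1.65 and 1.60 in model tumours, a difference of −0.34 (exact permutation p = 0.4). miR-30e-5p minus that mean differed by −0.094 (exact permutation p = 0.5). With GLE replicate 3 left out, these 3 differences were −0.086, −0.093 and −0.0074, and with GLE replicate 2 left out −0.31, −0.51 and −0.20. The adjusted p over these 5 within-array values was 0.5 for each, and 3 against 3 arrays cannot give a p below 0.1. No locus and no arm was thus shown to respond apart from the others.

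The probes of a member agreed in sign, apart from miR-30b-5p, whose probes gave −0.0088 and 0.016. The 3 probes of miR-30a-5p gave differences of −0.47, −0.41 and −0.33, the 2 of miR-30a-3p −0.57 and −0.48, and the 2 of miR-30c-5p −0.43 and −0.38. Those of miR-30d-5p gave −0.13 and −0.12, and those of miR-30e-5p −0.16 and −0.15. For every member read by more than 1 probe, the probes thus lay closer to each other than the SE of the member's difference. The probes of a member cover nearly the same bases on the same arrays, and the SE measures the spread between tumours. Their closeness is therefore not independent support for a difference.

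The other 3p strands of the family were too dim to test. miR-30b-3p was detected on 1 GLE and 2 model arrays, miR-30c-1-3p on 2 and 2, and miR-30c-2-3p on 1 and 2. miR-30d-3p and miR-384-5p, which is known from brain and shares the 5p seed, were detected on 0 of 3 arrays of either group. The entry miR-30f, named here after its values were seen, was also detected on 0 arrays of either group. Of the family's 3p strands on the array, those of miR-30a and miR-30e were thus the only ones detected in every tumour.

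Among the 381 other tested miRNAs, the patterns most like the mean of the 5p members over the 6 arrays were those of let-7c-5p (r = 0.995), miR-200b-3p (0.995), miR-429-3p (0.992) and miR-130a-3p (0.992). The least like were miR-1934-3p (−0.997) and miR-7031-5p (−0.993). Both were dim, with levels of −2.54 to −1.36 and −3.36 to −2.03. The 75th percentiles used for scaling ran from 203 units in GLE replicate 1 to 364 in GLE replicate 2. The part of that scaling in these r values was not tested. An r above 0.8 was reached by 53 of the 381 (13.9%), and the median r was −0.35. All 6 named miRNAs ordered the tumours exactly as the 5p mean did, or exactly in reverse.

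Since whole tumours were sampled, fewer cells of a type and less RNA per cell cannot be told apart. The epithelial list holds the miR-200 family, miR-141 and miR-205, which mark epithelial cells. Its summed level was 4.67, 14.1 and 1.96 times the 75th percentile in GLE replicates 1 to 3, and 11.2, 8.45 and 5.18 in model replicates 1 to 3. That is the order of the miR-30 5p mean in all 6 tumours. The list includes miR-200b-3p and miR-429-3p, named above for their likeness to that mean, so the shared order is not a separate observation. Of the list's 6 miRNAs, 3 were tested, 0 had a positive difference and 0 passed the test (median −0.63). The median was 0.048 with GLE replicate 3 left out and −1.40 with GLE replicate 2 left out. miR-200c-3p and miR-141-3p were detected on 0 arrays, and miR-205-5p on 1 model array.

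The immune list, which includes the leukocyte marker miR-142a-3p and the inflammatory miR-155-5p, ran the other way only in part. Its summed level was 11.9, 6.16 and 17.3 in the GLE tumours, and 5.53, 5.07 and 7.91 in the model tumours. This level was highest where miR-30 was lowest, in GLE replicate 3. It was not lowest where the miR-30 5p mean was highest, since GLE replicate 2 lay above model replicates 1 and 2. All 7 of the immune list's miRNAs were tested and had a positive difference, with 0 past the threshold (median 0.71, and 0.41 with GLE replicate 3 left out). The fibroblast and smooth muscle list had 5 of 6 positive and 0 past the threshold (median 0.64). That median was 0.21 with GLE replicate 3 left out and 1.03 with GLE replicate 2 left out. Its summed level was 1.81 to 5.87 in GLE and 1.57 to 2.52 in model tumours, the highest again in GLE replicate 3. The part of these cell types in the miR-30 values was not tested.

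**Figure D4:**
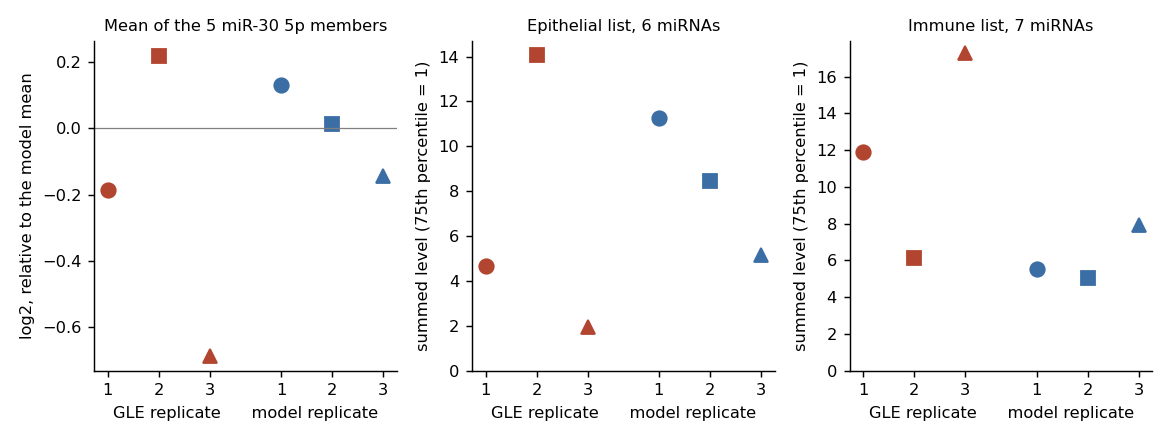
Mean of the 5 miR-30 5p members (left, log2 relative to the model mean) and summed levels of the epithelial list (middle) and the immune list (right), in multiples of each array's 75th percentile, for each GLE tumour (red) and model tumour (blue). GLE replicate 3 has the lowest miR-30 and epithelial values, −0.69 and 1.96, and the highest immune value, 17.3.

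No miRNA of the remaining lists passed the threshold either, and no list was tested as a whole. The endothelial miR-126a-3p was positive (0.49), the muscle list had 3 of 4 positive, the erythrocyte list 0 of 2 and the hepatocyte list 2 of 2. The median of the muscle list was 0.51, and −0.076 without GLE replicate 1. The median of the erythrocyte list was −0.28, and 0.095 without model replicate 3 or 0.091 without GLE replicate 3. For the hepatocyte list the median was 0.51, and −0.60 without GLE replicate 2. Summed levels were 3.00 to 4.18 in GLE and 2.39 to 2.83 in model tumours for the endothelial list, 1.95 to 6.92 and 1.19 to 2.98 for the muscle list, 3.02 to 11.1 and 4.34 to 12.7 for the erythrocyte list, and 0.098 to 1.47 and 0.090 to 0.40 for the hepatocyte list. The miR-29 family and miR-133, which like miR-30 are known to restrain matrix genes, had 4 of 5 positive (median 0.17, and −0.049 without GLE replicate 1). Liver-enriched miRNAs had 3 of 5 positive (median 0.36, and −0.37 without GLE replicate 2). The miR-133 strands are also in the muscle list, and the tested miRNAs of the hepatocyte list are also in the liver list. These pairs of lists are therefore not separate observations. Each of these lists had 0 members past the threshold.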

How the data were processed

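Tumour RNA of 6 mice was hybridised to one-colour miRNA arrays (Cy3). Per the file headers, the deposited scanner intensity values were made with Agilent Feature Extraction 10.7.1.1, which subtracts background. The authors also deposited a processed table, on a log2 scale by comparison with the scanner totals, whose making and centring are not given in the sources used here. It served as an alternative. Its column medians were −3.20, −3.32 and −3.27 in GLE replicates 1 to 3 and −3.32, −3.17 and −3.13 in model replicates 1 to 3.

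From the intensities, control and outlier spots were left out and spots averaged per probe. A probe was detected where over a share of 0.5 of its spots were well above background. Arrays were scaled to the 75th percentile of the 636 probes that every array detected, and floored at a log2 value of −4.25. A miRNA is the mean of its probes detected throughout at least 1 group, which left 388 for testing. Groups were compared with limma 3.58.1 in R 4.3.3 (two-sided, Benjamini-Hochberg over 388, threshold 0.05). Within-array values were tested over all 20 relabelings and arm relations over all 720 pairings. Folds are on this log2 scale. The fit was tested on simulated data with independent miRNAs and shifts larger than any member's difference. That simulation therefore does not show what the fit would find at differences of the members' size. With 3 arrays per group, precision is limited by their number.

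The members are defined by name alone, but the family and the lists were chosen with earlier results of these data known. The text names all members, the other 3p strands, miR-384-5p, the 4 most and 2 least correlated miRNAs, and up to 3 miRNAs of a list.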

Additional observations from a re-analysis of the deposited data

How the results depend on the processing

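The 7 differences and the 5 within-array values were recomputed with other scalings, background corrections, probe rules and the authors' deposited table, and without each tumour in turn. No member passed the threshold in any of the 19 alternatives run, and neither did any other miRNA. The 5p median stayed negative, between −0.39 and −0.026. The difference of miR-30b-5p, 0.0036 as reported, was −0.085 with the percentile over all probes, −0.11 with quantile normalisation, −0.11 with the median of the tested miRNAs, −0.013 with outlier spots kept and −0.0046 with summed probe totals, and ran from −0.14 to 0.14 as single tumours were left out. Over the same omissions miR-30e-5p ran from −0.39 to 0.052, miR-200b-3p from −1.34 to 0.048 and miR-130a-3p from −0.57 to 0.024, each positive only without GLE replicate 3. The 5p minus 3p difference turned to −0.14 for miR-30a with normexp, and to −0.0014 for miR-30e with no filter on dim probes, which adds a probe at the floor. The relation between arms ended with normexp (r = 0.687 for miR-30a and −0.13 for miR-30e). The median of the liver list ran from −0.37 to 0.37 as single tumours were left out, and from −0.010 to 0.44 over the other alternatives. The deviations of same-numbered tumours had correlations of −0.62, −0.18 and 0.37 for numbers 1 to 3, and those of different-numbered tumours ran from −0.50 to 0.66. Deviations from a group mean are tied to each other, so these correlations cannot decide whether the numbers pair the tumours. With the replicate number as a block, which in this balanced design cannot move a difference (−0.40 for miR-30a-5p), 0 members passed (limma adjusted p = 0.980 for miR-30a-5p). A slide or scan block was not run, since there was 1 slide and 1 scan. With the median of the tested miRNAs set to 0 on each array, the median of all differences moved to −0.10. Dim 3p probes, near background, limit what can be read of those strands.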
